A study of Mus musculus with 4 samples.

Results

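The genes described here are 10 transcription factors and cofactors that act in male germ cells, namely Crem, Fhl5, Rfx2, Rfx3, Sox30, Sox5, Tbpl1, Tcfl5, Mybl1 and Taf7l. They were chosen by name as a set of known spermatogenic regulators, and each matched 1 row by gene symbol among the 55357 genes of the count files. Spermatogenesis runs from mitotic spermatogonia through a long meiotic prophase to haploid spermatids, which begin as round cells and then elongate and pack their chromatin. Separate regulators are known for separate steps. Mybl1 encodes A-MYB, the activator of pachytene genes and piRNA precursors. Crem encodes an activator of postmeiotic genes as well as repressors, and Fhl5 its LIM-domain coactivator. Rfx2 and Rfx3 bind X-box motifs of cilium and flagellum genes, Sox30 and Sox5 are HMG-box proteins, and Tcfl5 is a germ cell bHLH protein. Tbpl1 and Taf7l are germ cell relatives of the TATA-binding protein and of the TFIID subunit TAF7.

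Single-nucleus RNA-seq was performed on whole testes of male mice 8 weeks old, with 2 WT and 2 Dhx37-/- libraries that the labels call biological replicates. In Dhx37-/- mice, a floxed Dhx37 allele on a C57BL/6 background was deleted by Amh-Cre, which is driven in Sertoli cells, so the germ cells measured here carried the floxed gene but were not the target of Cre. Dhx37, an RNA helicase gene, had 7.42 and 24.9 CPM in the WT and 10.6 and 6.69 CPM in the Dhx37-/- Sertoli nuclei (4, 3, 13 and 14 UMIs), values that overlap, and counts from the 3′ end do not check whether the floxed part was lost.

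The 4 libraries held 51797891 to 75611263 UMIs (unique molecular identifiers, which mark captured RNAs), and 8295 to 10030 nuclei per library passed calling and filtering, with medians of 3302 to 4157 UMIs. Between 19 and 29 barcodes were shared by any pair of libraries, at most 0.293% of the smaller one. Nuclei were placed in 5 germ cell gates by lists of stage markers that contain none of the 10 genes. The gates were spermatogonia (291 nuclei), early meiotic prophase (636), pachytene to diplotene spermatocytes (3834), early round spermatids (13188) and late round to elongating spermatids (11378). WT replicate 2 gave the fewest spermatogonia (22) and early meiotic nuclei (56), and of the spermatogonial nuclei 14.8% lay close to the boundary with another stage, so values in these gates are the least precise. Spermatogonial markers summed to 1039.7 to 1258 CPM (counts per 1000000 UMIs) in the spermatogonia gate and to 368 to 684 CPM in early meiotic prophase. They also summed to 762 to 1106 CPM in Leydig and 437 to 976 CPM in T cell nuclei, and to 99.2 to 498 CPM in the other somatic classes. In spermatogonia of WT replicate 2, 4 of the 14 markers were at 0. Early meiotic markers were also high in spermatogonia (2598 to 3229.9 against 3378 to 4668 CPM). All spermatogonial nuclei, and 88.6% to 99.4% of the early meiotic nuclei of each library, came from 1 cluster, in which the boundary was set by score, so both gates are ranges of that score and not types. All levels below are CPM of a gene among the UMIs of the gate in 1 library, and the 4 values are given in the order WT replicate 1, WT replicate 2, Dhx37-/- replicate 1, Dhx37-/- replicate 2. Levels are compared within a gene only, because they are not scaled to gene length.

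Late spermatid markers were counted in every gate. The 16 markers of late spermatids summed to 3904 to 7341 CPM in the spermatogonia gate, with none of the 16 at 0, against 15641 to 26746 CPM in the late gate. Their sum was higher in both Dhx37-/- libraries than in both WT libraries in each of the 5 gates. For example, it was 5248 to 5441 CPM in WT and 8183 to 9494 CPM in Dhx37-/- early round spermatids. Free RNA was read from barcodes ranked 45000 to 90000 by depth. Whether free RNA gave these counts, and its part in the results, was not tested. Shares of nuclei with at least 1 UMI after thinning every nucleus to 1000 UMIs are pooled over the nuclei of the 4 libraries, except where given by library, and stand beside the share in macrophages, a class outside the germ line. The macrophage share is not a floor, since both Sertoli and Leydig nuclei had lower shares for Crem, Rfx2, Rfx3, Sox30, Tbpl1 and Tcfl5. Medians were 2679 UMIs per macrophage nucleus and 3247 to 4201 per germ nucleus before thinning.

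The order in which the genes appeared was read as the first gate whose mean over the 4 libraries reached at least 0.5 of that gene's highest gate. By this rule, Taf7l, Rfx3 and Tcfl5 reached the mark in spermatogonia, Tbpl1 and Sox30 followed in early meiotic prophase, Rfx2, Mybl1 and Crem in pachytene to diplotene spermatocytes, and Sox5 and Fhl5 in early round spermatids. Tcfl5 in spermatogonia (137 ± 30.3 CPM) was below its level in free RNA (159.5 to 262 CPM), and thinned shares there were 11.7% for Tcfl5 and 26.4% for Rfx3, against 3.72% and 15.8% in macrophages. Sox30 in early meiotic prophase (67.7 ± 8.18 CPM) was also below its level in free RNA (93.9 to 157 CPM). Tbpl1 (132 ± 37.8 CPM there, 167 to 422 CPM in free RNA) was below the free RNA of the same library in every germ cell gate. The gates of highest level did not follow the same order. Taf7l was highest before pachytene, Tbpl1, Rfx2 and Mybl1 in pachytene to diplotene spermatocytes, Sox30 and Sox5 in early round spermatids, and Rfx3, Tcfl5, Crem and Fhl5 in late round to elongating spermatids. Mean levels of each gene as a percent of its highest gate are drawn in the map of onset.

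**Figure D1:**
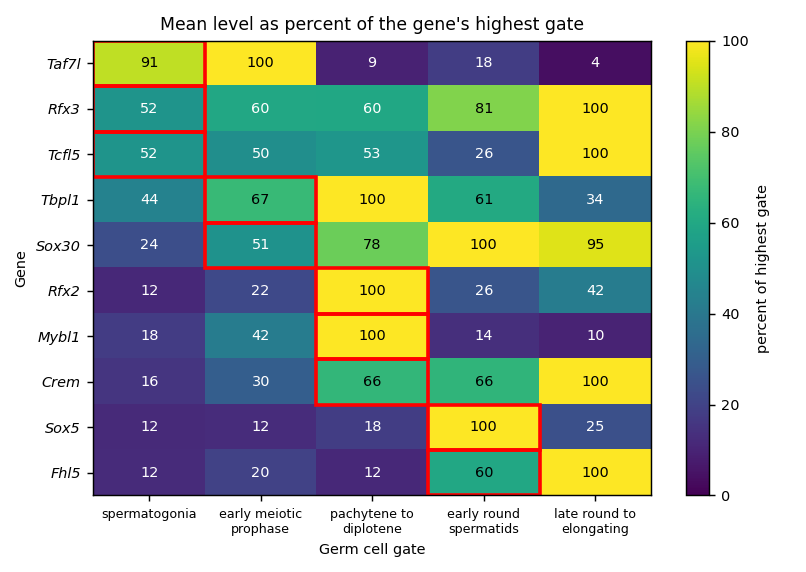
Mean level of each gene in each germ cell gate (columns, in order of differentiation) as a percent of the gene's highest gate, over 4 libraries. Red frames mark the first gate at or above 50 percent. The frames step from spermatogonia for Taf7l, Rfx3 and Tcfl5 to early round spermatids for Sox5 and Fhl5, and Taf7l falls from 100 to 9 percent between early meiotic prophase and pachytene to diplotene spermatocytes.

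The rule gave the same gate in each of the 4 libraries for Crem, Fhl5, Rfx2, Sox5 and Taf7l. For the others single libraries differed. Rfx3 reached the mark in early meiotic prophase in both Dhx37-/- libraries and in spermatogonia in both WT libraries. Sox30 reached it in pachytene to diplotene spermatocytes in both Dhx37-/- libraries. Mybl1 went the other way, since both Dhx37-/- libraries reached it in early meiotic prophase. Tcfl5 reached it later, in pachytene to diplotene spermatocytes, in WT replicate 1, and Tbpl1 earlier, in spermatogonia, in WT replicate 1. Means over libraries were just past the mark for Rfx3 in spermatogonia (51.6% of its highest gate) and Sox30 in early meiotic prophase (50.8%). Mybl1 in early meiotic prophase had a mean below the mark (42.0%). The share of all genes with onset split by genotype was not taken, and a shift of onset between genotypes was not tested.

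Changes between successive gates were fitted over all 23403 genes that passed the filter on low counts, with edgeR's quasi-likelihood test, library as a term and Benjamini-Hochberg adjustment over all genes. The comparison of early meiotic prophase with spermatogonia called 4 of the 10 genes, all higher, where 5.73% of all genes were called (3.12% higher and 2.62% lower). From early meiotic prophase to pachytene to diplotene spermatocytes 8 of the 10 were called (57.0% of all genes), 7 higher (33.9%) and 1 lower (23.1%). From there to early round spermatids 9 were called (71.8% of all genes), 6 higher (34.5%) and 3 lower (37.3%). From early to late spermatids 8 were called (70.0% of all genes), 5 higher (34.0%) and 3 lower (36.0%). In the last 3 steps most genes changed, so a call there does not set these genes apart. The median change of the 10 genes was 0.72, 0.96, 0.65 and 0.30 on the log2 scale in the 4 steps, and that of all genes 0.16, 0.24, -0.07 and 0.01.

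The scaling matters for these fits. The TMM factors that edgeR applied for composition fell from a mean of 1.567 in spermatogonia to 0.645 in late spermatids, so a fitted change lies above the change in CPM wherever the factor falls. With no such factor (totals only), the median of all genes in the step to early round spermatids was -0.53, and with median-of-ratios factors it was 0.20. The split of all called genes into higher and lower moved with it. It was 8077 to 8738 with TMM and 6318 to 11559 with totals only in that step, 7931 to 5405 against 6283 to 7079 in the step to pachytene, and 730 to 612 against 492 to 784 in the first. Where either scaling changed a call or a direction for 1 of the 10 genes, its value is given with the gene.

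**Figure D2:**
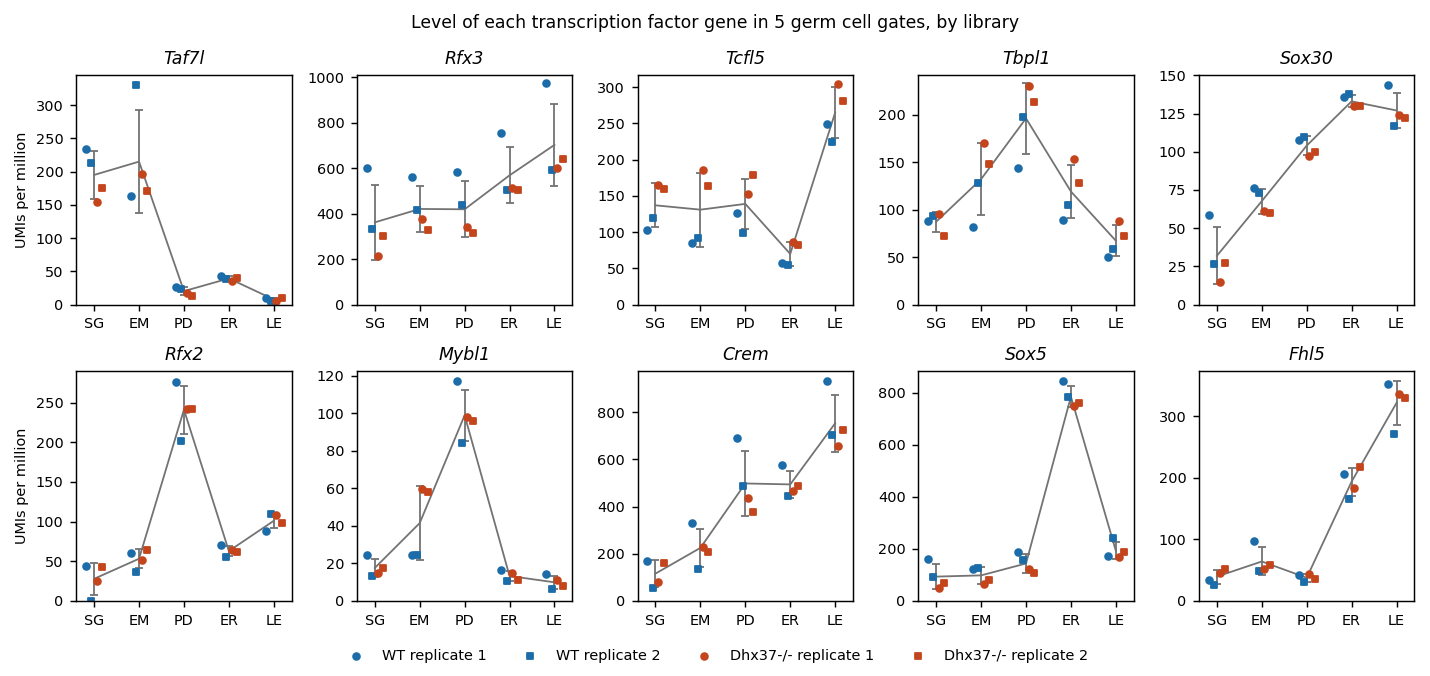
Level in CPM (vertical axis) of each gene in the 5 germ cell gates, spermatogonia (SG), early meiotic prophase (EM), pachytene to diplotene spermatocytes (PD), early round spermatids (ER) and late round to elongating spermatids (LE). Points are libraries, and the line and bars are the mean and SD over the 4 libraries. Sox5 in ER lies between 751 and 844 CPM in every library and at 242 CPM or less in all other gates, and Rfx2 and Mybl1 peak in PD.

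The start-site regions of 8 of the 10 genes were read from RefSeq windows of GRCm38.p6 (250 bases before to 50 after the start). Because Mybl1 and Rfx2 peaked in the same gate, windows were searched on both strands for CAACGG, the core of MYB motifs, and for GTTGCC, the RFX motif core. These letters were chosen after the windows had been read. Of all 32851 windows, 5.12% held the first and 12.5% the second. Rfx2 held the MYB letters 3 times, at -175, -151 and -118 from the start, Tcfl5 held them 2 times, at -83 and -22, and Rfx3 held them at 30 bases after the start. In Rfx2 and Rfx3 the match shared 4 letters with an RFX core to give CCGTTGCC, which 0.724% of all windows held. The bases before the start of Rfx2 (chr17:56831009-56831258, minus strand) and Tcfl5 (chr2:180642692-180642941, minus strand) and a short stretch of Rfx3 (chr19:28011123-28011146, minus strand) are shown 5′ to 3′ with these matches in capitals.
Rfx2: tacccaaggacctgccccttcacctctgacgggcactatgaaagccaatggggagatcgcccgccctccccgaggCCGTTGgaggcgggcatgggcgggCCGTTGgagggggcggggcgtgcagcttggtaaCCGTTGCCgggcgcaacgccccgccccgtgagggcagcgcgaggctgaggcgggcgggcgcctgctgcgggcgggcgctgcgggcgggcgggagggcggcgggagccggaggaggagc
Tcfl5: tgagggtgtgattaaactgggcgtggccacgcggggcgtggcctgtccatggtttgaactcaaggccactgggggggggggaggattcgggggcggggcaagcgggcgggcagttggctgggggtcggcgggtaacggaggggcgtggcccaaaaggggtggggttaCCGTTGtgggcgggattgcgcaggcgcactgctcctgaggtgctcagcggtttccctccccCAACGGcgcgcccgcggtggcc
Rfx3: ttatagcaaCCGTTGCCttgtgaa

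These matches describe letters and not sites. Other letters were searched in the same windows. The cAMP response element TGACGTCA (1.79% of all windows) was in none of the 8 genes, the E-box CACGTG (7.15%) was in Taf7l, and the SOX letters AACAAT (10.7%) were in Fhl5. The shorter core TGACG (20.8%) was in Rfx2, and Sox5 held the RFX core without MYB letters. Of the 3 genes with MYB letters, Rfx2 rose at the entry to pachytene by 2.46, Tcfl5 by 0.44 with a call that was lost with totals only, and Rfx3 by 0.39 with no call. Genes with windows but without MYB letters changed there by 1.00 (Sox30), 0.98 (Sox5), 0.94 (Tbpl1) and -2.99 (Taf7l), all called, and by -0.37 (Fhl5) with no call.

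Among the genes, the relatives of the basal machinery had different courses. Taf7l had 234, 213, 155 and 176 CPM in spermatogonia and 163, 329.8, 196 and 171 CPM in early meiotic prophase. In pachytene to diplotene spermatocytes the 4 values were 25.7, 23.7, 18.1 and 13.3 CPM, below every library of the earlier gates. Taf7l fell by 2.99 ± 0.22 (SE) on the log2 scale (edgeR adjusted p = 5.56e-14), rose again by 1.45 ± 0.20 in early round spermatids (edgeR adjusted p = 5.71e-08, 39.3 ± 3.45 CPM, SD, n = 4) and fell by 2.17 ± 0.21 in late spermatids (edgeR adjusted p = 4.54e-12, 7.69 ± 2.20 CPM). The change from spermatogonia to early meiotic prophase was 0.25 ± 0.23 (edgeR adjusted p = 0.577). After thinning, 15.8% of spermatogonia, 18.5% of early meiotic nuclei and 2.37% of pachytene to diplotene nuclei had a Taf7l UMI, against 0.746% of macrophages, and in late spermatids the share (0.765%) was at the macrophage level.

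Taf7l lies on chromosome X, which is transcriptionally silenced in pachytene spermatocytes of the mouse and partly active again in spermatids. Among the 743 X-linked genes tested, a group looked at after the values of Taf7l were seen, 366 fell and 108 rose from early meiotic prophase to pachytene to diplotene spermatocytes, with a median of -1.04 against 0.24 over all genes. In early round spermatids 385 of them rose and 67 fell, with a median of 0.81 against -0.07. The fall of Taf7l was larger than that of most X-linked genes (20.3% of them had a lower fitted change). Its autosomal relative Taf7, the standard TFIID subunit, also looked at after the values were seen, had 43.9 ± 12.1 CPM in early meiotic prophase and 28.6 ± 2.67 CPM in pachytene to diplotene spermatocytes. The part of silencing of chromosome X in the course of Taf7l was not tested.

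Tbpl1 had 144, 197, 229.9 and 213 CPM in pachytene to diplotene spermatocytes, its highest gate. All 4 values were above those in late spermatids (50.3, 58.2, 87.9 and 72.3 CPM). It rose by 0.83 ± 0.23 from spermatogonia to early meiotic prophase (edgeR adjusted p = 0.0247) and by 0.94 ± 0.18 from there to pachytene (3.31e-05), and fell by 0.63 ± 0.16 from early to late spermatids (0.000680). The step into early round spermatids, where mean CPM went from 196 ± 37.0 to 119 ± 27.7, gave -0.27 ± 0.16 with TMM (edgeR adjusted p = 0.129) and -0.73 with totals only (3.35e-05). The first rise was not called with totals only (0.68, adjusted p = 0.0552), nor without Dhx37-/- replicate 1 (0.70, 0.279) or replicate 2 (0.66, 0.282). In spermatogonia 7.56% of thinned nuclei had a Tbpl1 UMI and in late spermatids 6.83%, beside 7.81% of macrophages, 6.71% of Sertoli and 4.62% of Leydig nuclei, while in pachytene to diplotene spermatocytes it was 18.9%.

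The 2 genes that peaked sharply in meiosis were Mybl1 and Rfx2. Mybl1 had 117, 84.4, 98.2 and 95.7 CPM in pachytene to diplotene spermatocytes and 16.3, 10.9, 14.9 and 11.2 CPM in early round spermatids, and these ranges were far apart. Mybl1 rose by 1.43 ± 0.24 at the entry to pachytene (edgeR adjusted p = 5.24e-06) and fell by 2.44 ± 0.21 at the entry to round spermatids (4.38e-13). It also rose from spermatogonia to early meiotic prophase, by 1.52 ± 0.39 (edgeR adjusted p = 0.0145), a call that was lost without Dhx37-/- replicate 1 (1.29, 0.177) or replicate 2 (1.34, 0.200). The step to late spermatids was -0.26 ± 0.21 (edgeR adjusted p = 0.273) and -0.45 with totals only (0.0417), between gates whose thinned shares (1.22% and 1.13%) were close to the 1.12% of macrophages. Its level in spermatogonia, 17.6 ± 4.87 CPM, was below its level in the free RNA of the libraries (35.0 to 62.6 CPM).

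Rfx2 had 276, 202, 242 and 242 CPM in pachytene to diplotene spermatocytes, against 59.8, 36.6, 51.4 and 64.7 CPM in early meiotic prophase. No library of 1 gate came near the other. The rise was 2.46 ± 0.24 (edgeR adjusted p = 3.63e-11), the largest rise of the 10 genes at this step, and it was followed by a fall of 1.47 ± 0.19 in early round spermatids (1.51e-08) and a smaller rise of 0.89 ± 0.19 in late spermatids (8.20e-05). Means in these gates were 62.9 ± 6.30 and 101 ± 9.60 CPM. After thinning, 20.7% of pachytene to diplotene nuclei had an Rfx2 UMI, against 3.35% of macrophages. In spermatogonia 1 library, WT replicate 2, had no Rfx2 UMI among 75059, which allows up to 3 UMIs by counting error alone, and the step to early meiotic prophase was 0.80 ± 0.33 (edgeR adjusted p = 0.152).

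Rfx3, in contrast, was spread over all gates. It had 600.4, 333, 215 and 301 CPM in spermatogonia and 974, 592, 602 and 642 CPM in late spermatids, and WT replicate 1 was the highest library in every gate. It rose by 0.92 ± 0.18 in early round spermatids (edgeR adjusted p = 2.11e-05) and by 0.49 ± 0.18 in late spermatids (0.0142). The second call was lost with totals only (0.29, 0.0669) and without Dhx37-/- replicate 1 (0.48, 0.0715). The step into pachytene, 0.39 ± 0.19 (edgeR adjusted p = 0.0735), had the opposite sign with totals only (-0.01, 0.967) and was called with median-of-ratios factors (0.45, 0.0220). Free RNA of WT replicate 1 also carried more Rfx3 than that of the other libraries, and across libraries the range was 83.4 to 539 CPM.

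Sox30 increased in small steps. The 4 values were 58.6, 26.6, 15.0 and 27.5 CPM in spermatogonia, 76.2, 73.3, 61.3 and 60.1 CPM in early meiotic prophase and 108, 109.5, 97.5 and 99.6 CPM in pachytene to diplotene spermatocytes, with no overlap between successive gates. In early round spermatids they were 136, 138, 130 and 129.9 CPM. The rises were 1.19 ± 0.29, 1.00 ± 0.20 and 0.83 ± 0.17 in these 3 steps (edgeR adjusted p = 0.0106, 5.95e-05 and 3.28e-05). The first was not called without Dhx37-/- replicate 1 (1.00, 0.155) or replicate 2 (1.20, 0.121). The last step was 0.11 ± 0.16 (edgeR adjusted p = 0.549) and -0.08 with totals only. In spermatogonia 3.10% of thinned nuclei had a Sox30 UMI, beside 3.16% in macrophages, 1.22% in Sertoli and 2.03% in Leydig nuclei, and in early round spermatids 12.6%.

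Tcfl5 dipped in early round spermatids and was highest in late spermatids. It had 126, 99.3, 152 and 179 CPM in pachytene to diplotene spermatocytes, 57.2, 54.7, 86.0 and 81.7 CPM in early round spermatids and 249, 224, 305 and 281 CPM in late spermatids. All early round values lay under all values of the gates on either side. Free RNA of the same libraries had 159.5, 176, 262 and 208 CPM of Tcfl5. Each pachytene to diplotene value was below that level and each late spermatid value above it. The rise into late spermatids was 2.14 ± 0.18 (edgeR adjusted p = 1.10e-13). The fall before it was -0.53 ± 0.17 (edgeR adjusted p = 0.00613), which was not called with median-of-ratios factors (-0.27, 0.109) or without WT replicate 1 (-0.40, 0.0555). Early meiotic prophase differed from spermatogonia by 0.13 ± 0.22 (edgeR adjusted p = 0.814), with the opposite sign with totals only (-0.03). The step into pachytene, 0.44 ± 0.19 (edgeR adjusted p = 0.0494), was lost with totals only (0.08, 0.832) and without WT replicate 1 (0.22, 0.386), WT replicate 2 (0.43, 0.0835) or Dhx37-/- replicate 2 (0.48, 0.0854), and also in a stricter gate (0.46, 0.0747) and with unscaled stage scores (0.36, 0.0787). Col9a3, which overlaps Tcfl5 on the opposite strand, had 242 ± 26.5 CPM in late spermatids and at most 26.6 CPM in any library of the other gates. The strand used in counting is not stated, and whether reads of 1 gene entered the count of the other was not tested.

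Crem was first found at a high level in meiosis. The gene has activator and repressor products, and these counts do not separate them. It had 329, 134, 228 and 209 CPM in early meiotic prophase, 691, 489, 436 and 375 CPM in pachytene to diplotene spermatocytes and 931, 703, 655 and 723 CPM in late spermatids. The lowest pachytene library was thus above the highest early meiotic library. Crem rose by 1.51 ± 0.23 at the entry to pachytene (edgeR adjusted p = 4.84e-07) and by 0.80 ± 0.21 from early to late spermatids (0.000796). Between these steps the mean CPM was the same (498 ± 137 and 494 ± 57.0), the fitted change with TMM was 0.47 ± 0.21 (edgeR adjusted p = 0.0418), and with totals only it was 0.01 (0.966), so a rise into early round spermatids rests on the scaling. That call was also lost in a stricter gate (0.47, 0.0592) and without Dhx37-/- replicate 1 (0.45, 0.142) or replicate 2 (0.36, 0.139). The first rise, 0.94 ± 0.26 from spermatogonia (edgeR adjusted p = 0.0254), was not called without WT replicate 1 (0.87, 0.0825) or Dhx37-/- replicate 1 (0.73, 0.302). Thinned shares with a Crem UMI were 15.1% in spermatogonia, 38.0% in pachytene to diplotene spermatocytes and 49.7% in late spermatids, against 13% in macrophages.

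Fhl5, the coactivator, came after Crem. It had 41.8, 30.4, 43.8 and 35.0 CPM in pachytene to diplotene spermatocytes, 207, 166, 184 and 217 CPM in early round spermatids and 352, 271, 337 and 330.1 CPM in late spermatids. The 3 ranges did not overlap. The rises were 2.82 ± 0.19 and 0.92 ± 0.17 (edgeR adjusted p = 7.12e-16 and 9.50e-06). Crem had thus reached 66.1% of its highest mean level in pachytene to diplotene spermatocytes, where Fhl5 stood at 11.7% of its own. The step before was -0.37 ± 0.22 (edgeR adjusted p = 0.152) and was called lower with totals only (-0.72, 0.00231). Gm11906 lies opposite to Fhl5 and had 213 ± 81.6 CPM in early round and 331 ± 143 CPM in late spermatids, so the same limit on strand applies.

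Sox5 marked early round spermatids most sharply. It had 844, 783, 751 and 761 CPM there, 187, 158, 122 and 109 CPM in pachytene to diplotene spermatocytes and 174, 242, 169.5 and 188 CPM in late spermatids. The rise was 2.94 ± 0.20 (edgeR adjusted p = 1.12e-15) and the fall 1.83 ± 0.19 (5.26e-11). After thinning, 50.6% of early round nuclei had a Sox5 UMI, against 7.82% of macrophages. In spermatogonia the share was 0% to 11.5% by library and in early meiotic prophase 4.62% to 14.3%, ranges that overlap that of macrophages (3.40% to 13.9%). A smaller rise of 0.98 ± 0.22 at the entry to pachytene was also called (edgeR adjusted p = 0.000221). Several noncoding genes overlap Sox5, and the opposite-strand Sox5os3 and Sox5os4 were highest in late spermatids (127 ± 16.6 and 80.5 ± 9.17 CPM), not in early round spermatids (56.1 ± 10.8 and 10.3 ± 2.99 CPM).

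Sox5 was not restricted to germ cells. Leydig nuclei had 1356, 923, 939.8 and 988 CPM, fibroblasts 1267, 1191, 966 and 1073 CPM and peritubular myoid cells 950.1, 736, 845 and 742 CPM. Class means were 1052 ± 205, 1124 ± 132 and 818 ± 101 CPM, beside 785 ± 41.5 CPM in early round spermatids. In Sertoli nuclei Sox5 was at 92.6 ± 30.7 CPM and in macrophages at 126 ± 50.4 CPM. Mybl1, at 13.3 ± 2.69 CPM in early round spermatids, had 64.9, 16.6, 52.4 and 40.6 CPM in Sertoli nuclei from 35, 2, 64 and 85 UMIs. Each of these was below the lowest library in pachytene to diplotene spermatocytes (84.4 CPM), and the mean of 43.6 ± 20.6 CPM was within the range in free RNA. Mybl1 means in the other somatic classes ran from 4.65 CPM (peritubular myoid) to 20.7 CPM (fibroblasts), and the part of free RNA was not tested. The plot of Sox5 and Mybl1 across all classes shows both patterns.

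**Figure D3:**
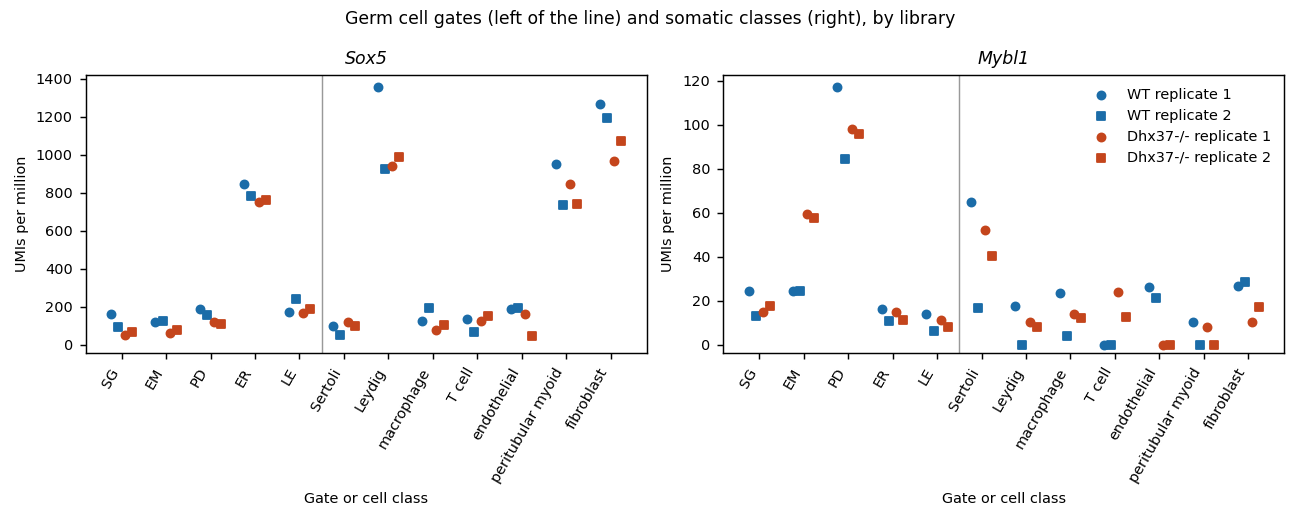
Level in CPM of Sox5 (left) and Mybl1 (right) in the 5 germ cell gates (SG, EM, PD, ER and LE, as spermatogonia, early meiotic prophase, pachytene to diplotene spermatocytes, early round and late round to elongating spermatids) and in 7 somatic classes, by library. Sox5 is at 736 CPM or more in early round spermatids, Leydig, peritubular myoid and fibroblast nuclei of every library, and Mybl1 is highest in pachytene to diplotene spermatocytes.

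For each gene, the pair of genes with the most similar course was taken from 23393 genes as the highest Pearson correlation of log2 CPM over the 20 library-by-gate sums, which share libraries and depth. For Crem these were Lrriq3 (r = 0.983) and Gm45524 (0.980), for Fhl5 Pkd1l3 (0.981) and Dynlt5 (0.980), and for Taf7l Chm (0.978) and the cohesin subunit gene Stag1 (0.978). For Rfx2 they were Oxsm (0.968) and Slc30a3 (0.953), for Sox30 Gm45740 (0.968) and 4930557F10Rik (0.960), and for Sox5 Grik1 (0.963) and Rasef (0.955). Mybl1 went with Tbc1d12 (0.958) and Arid2 (0.949), Tbpl1 with Larp7 (0.957) and Rsph1 (0.943), Tcfl5 with Mbd2 (0.929) and Lpcat3 (0.916), and Rfx3 with Tasp1 (0.918) and Ddhd1 (0.887). Grik1, for example, had 98.8 ± 25.9 CPM in pachytene to diplotene spermatocytes, 705 ± 55.5 CPM in early round and 84.8 ± 10.9 CPM in late spermatids, close in shape to Sox5.

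Relatives, partners and targets of these genes were taken as lists, and their counts stand beside the shares of all genes that were called higher and lower in the same step, which were 3.12% and 2.62% in the first, 33.9% and 23.1% in the second, 34.5% and 37.3% in the third and 34.0% and 36.0% in the last. No list was tested against these shares. Of 18 close relatives 16 were tested, and from early meiotic prophase to pachytene 10 rose and 3 fell (33.9% and 23.1% of all genes). Rfx4 and Rfx8 rose by 2.88 ± 0.27 and 2.78 ± 0.26 (edgeR adjusted p = 1.68e-11 and 1.61e-11) at the same step as Rfx2, and Fhl1 fell by 3.47 ± 0.58 (3.93e-06). The CREM relative Creb1 fell by 2.31 ± 0.18 in early round spermatids (edgeR adjusted p = 8.12e-14) where Sox6 and Sox13, relatives of Sox5, rose by 2.02 ± 0.22 and 2.13 ± 0.34 (1.68e-10 and 5.84e-07). In the steps to early meiotic prophase, early round and late spermatids, 2 relatives rose and 1 fell, 5 rose and 7 fell, and 4 rose and 6 fell.

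The 13 genes listed as partners held Brdt, Ep300 and Kif17 beside genes of the general transcription machinery. Of these 13, 5 rose and 5 fell at the entry to pachytene (33.9% and 23.1% of all genes). The TFIIA-like gene Gtf2a1l rose by 1.75 ± 0.22 (edgeR adjusted p = 2.03e-08), and the TFIID subunit genes Taf1 and Taf4 fell by 3.59 ± 0.23 and 3.25 ± 0.32 (1.70e-15 and 7.59e-11). In early round spermatids Taf4b, the germ cell relative of Taf4, rose by 3.03 ± 0.19 (edgeR adjusted p = 9.02e-17), and 4 partners rose and 5 fell. In the first step 3 rose and none fell, among them Brdt (1.08 ± 0.28, edgeR adjusted p = 0.0172), and in the last 3 rose and 8 fell. Of the 19 other spermatogenic regulators, 5 rose and 1 fell in the first step, 9 rose and 6 fell in the second, 5 rose and 7 fell in the third, and 4 rose and 5 fell in the last. Meiosin, a gene of meiotic entry, rose by 1.56 ± 0.35 in early meiotic prophase (edgeR adjusted p = 0.00480) and fell by 7.06 ± 0.41 in pachytene (9.61e-17).

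Of 10 piRNA pathway genes known to have A-MYB at their promoters, 6 rose and 1 fell at the entry to pachytene (33.9% and 23.1% of all genes), with a median of 0.70 against 0.24 over all genes. Tdrd5 and Tdrd1 rose by 1.80 ± 0.25 and 1.27 ± 0.23 (edgeR adjusted p = 1.05e-07 and 1.13e-05). In the other steps none was called, 1 rose and 6 fell, and 1 rose and 5 fell. Of 10 intraflagellar transport and cilia genes with RFX sites, 8 rose and 1 fell at the entry to pachytene (33.9% and 23.1% of all genes), with a median of 1.5 against 0.24 over all genes. Spag6l rose by 2.93 ± 0.20 and Dync2h1 by 2.05 ± 0.20 (edgeR adjusted p = 4.23e-15 and 4.91e-11). None was called in the first step, 4 rose and 4 fell in early round spermatids, and 1 rose and 8 fell in late spermatids, with a median of -1.90. The 5 genes that need CREM in spermatids all rose in early round spermatids (34.5% of all genes) and again in late spermatids (34.0%), with medians of 1.55 and 0.88 against -0.07 and 0.01 over all genes. Camk4 rose by 3.65 ± 0.25 and Akap4 by 1.70 ± 0.21 in the first of these steps (edgeR adjusted p = 1.52e-15 and 4.16e-09). Before that, 1 rose and 1 fell at the entry to pachytene and none was called in early meiotic prophase. These 5 genes were listed for their need of CREM in spermatids, so their rise in spermatids is not independent of that choice. Gates were set by markers of the same stages, such as Stra8, Piwil1, Prm1 and Tnp1. Changes of genes that share the course of such markers, in this and the other lists, are thus not independent of the gates.

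The genotype comparison asked whether the 10 genes differed in germ cells of testes whose Sertoli cells were the target of the Dhx37 deletion. None of the 10 was called by edgeR's quasi-likelihood test in any of the 5 gates. Over all genes the calls were also few, at 0% in spermatogonia, 0.141% in early meiotic prophase, 0.0206% in pachytene to diplotene spermatocytes, 0.00852% in early round and 0% in late spermatids. In spermatogonia 6 of the 10 genes passed the filter and were tested, and Fhl5, Rfx2, Sox30 and Mybl1 were not. At an unadjusted p under 0.05 the counts of these genes in the 5 gates were 2, 3, 2, 1 and 0 (5.52%, 16.7%, 17.6%, 6.18% and 8.26% of all genes), and the DESeq2 Wald test called none of them. Nothing in the sources ties same-numbered libraries together, and p-values measure the spread between these libraries. The leading cluster differed between genotypes in 2 of the 5 gates. In pachytene to diplotene spermatocytes cluster 1 held 56.1% and 57.5% of WT nuclei, and cluster 9 held 44.9% and 37.4% of Dhx37-/- nuclei, close to cluster 1 (43.6% and 30.9%). In early round spermatids cluster 13 led in WT (19.8% and 23.4%) and cluster 12 in Dhx37-/- (17.9% and 18.2%). With 2 libraries a group, an exact permutation test of 1 value cannot go below p = 0.33.

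**Figure D4:**
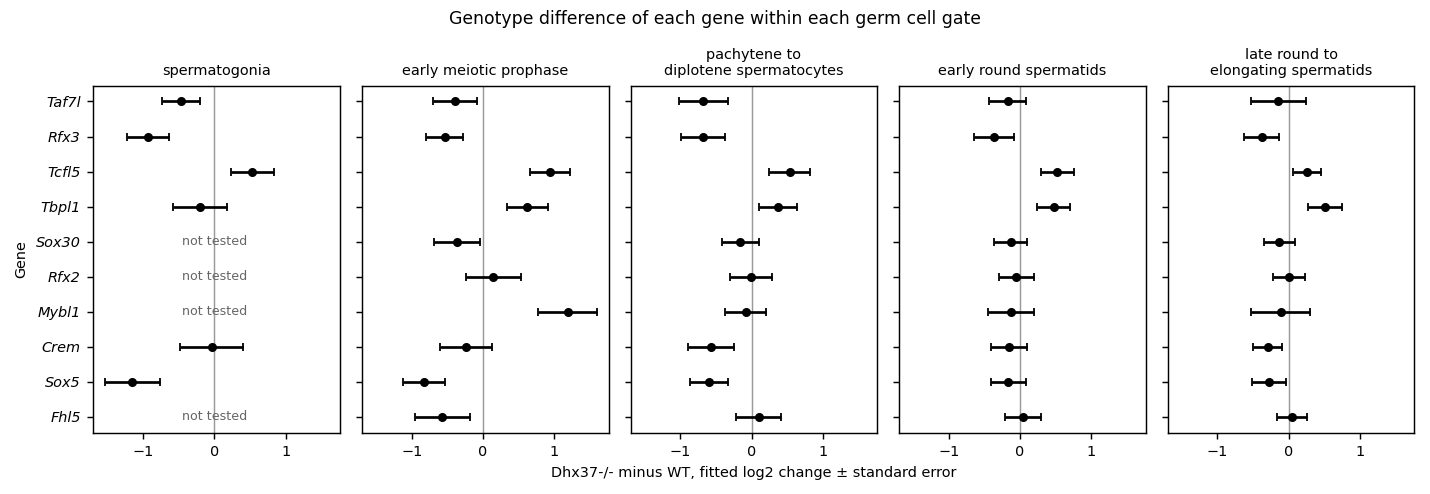
Fitted log2 change of each gene, Dhx37-/- minus WT, with its standard error, within each germ cell gate (2 libraries a group). Tcfl5 lies to the right of 0 in all 5 gates, Crem, Rfx3, Sox5 and Taf7l lie to the left, as does Sox30 in the 4 gates in which it was tested, and no gene passes an adjusted p of 0.05.

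Among the 10 genes, Tcfl5 alone had libraries separated by genotype in every gate. It had 84.3 and 91.6 CPM in WT and 186 and 163 CPM in Dhx37-/- early meiotic prophase, 126 and 99.3 against 152 and 179 CPM in pachytene to diplotene spermatocytes, and 57.2 and 54.7 against 86.0 and 81.7 CPM in early round spermatids. In spermatogonia it had 103 and 119.9 against 165 and 159 CPM, and in late spermatids 249 and 224 against 305 and 281 CPM. Both Dhx37-/- libraries were thus higher in 5 of 5 gates. Of the 5569 genes tested in all 5 gates, 3.36% showed the same separation upward. The fitted changes were 0.53 ± 0.30, 0.94 ± 0.28, 0.53 ± 0.28, 0.52 ± 0.23 and 0.26 ± 0.20 from spermatogonia to late spermatids (edgeR adjusted p = 0.871, 0.133, 0.340, 0.799 and 0.723). Late spermatid markers, from the gate in which Tcfl5 is highest, were also higher in both Dhx37-/- libraries in all 5 gates (6576 to 8825 against 5552 to 5648 CPM in pachytene to diplotene spermatocytes), and so was Tcfl5 in free RNA (159.5 and 176 CPM in WT, 262 and 208 CPM in Dhx37-/-). Leydig (29.3 and 19.0 against 40.2 and 30.6 CPM) and endothelial nuclei (20 UMIs in all) were separated in the same direction. Macrophages, T cell, peritubular myoid and fibroblast nuclei overlapped. Endothelial nuclei of Dhx37-/- replicate 2 numbered 7, of which 6 were called doublets, and T cell nuclei of WT replicate 2 numbered 7. The part of free RNA in the Tcfl5 difference was not tested. In Sertoli nuclei, a comparison added after the data were seen, Tcfl5 had 14.8 and 8.31 CPM in WT and 48.3 and 34.9 CPM in Dhx37-/-, from 8, 1, 59 and 73 UMIs, with a change of 1.5 ± 0.51 (edgeR adjusted p = 0.704, where 0% of all genes were called). Late spermatid markers in Sertoli nuclei went the same way, with 1753 and 2384 CPM in WT and 5483 and 3026 CPM in Dhx37-/-.

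Tbpl1 was separated upward in 4 gates. It had 81.6 and 128 CPM in WT and 170.2 and 148 CPM in Dhx37-/- early meiotic prophase, and 144 and 197 against 229.9 and 213 CPM in pachytene to diplotene spermatocytes. In round and late spermatids it had 88.8 and 105 against 153 and 128 CPM, and 50.3 and 58.2 against 87.9 and 72.3 CPM. Spermatogonia overlapped. The changes in these 4 gates were 0.62 ± 0.29, 0.37 ± 0.27, 0.47 ± 0.23 and 0.51 ± 0.24 (edgeR adjusted p = 0.318, 0.490, 0.806 and 0.609). Free RNA held 167, 354, 422 and 341 CPM of Tbpl1, lowest in WT replicate 1 and highest in Dhx37-/- replicate 1 as in these gates. Unlike in these gates, the genotypes overlapped in free RNA, and its part was not tested. Fibroblasts were separated in the same direction (51.5 and 53.0 against 93.9 and 92.1 CPM), as were peritubular myoid and T cell nuclei, whereas Sertoli, Leydig, macrophage and endothelial nuclei overlapped. Pachytene markers were higher in Dhx37-/- pachytene to diplotene spermatocytes (4473 to 4633 against 3305 to 3750.2 CPM). Their part in the Tbpl1 difference was not tested. Mybl1 values were separated upward in early meiotic prophase, with 24.5 and 24.4 CPM in WT (9 and 4 UMIs) and 59.4 and 57.8 CPM in Dhx37-/- (30 and 76 UMIs), a change of 1.19 ± 0.42 (edgeR adjusted p = 0.188). In pachytene to diplotene spermatocytes, its highest gate, the groups overlapped (101 ± 23.2 and 97.0 ± 1.75 CPM, SD, n = 2 each). Pachytene markers were also higher in the Dhx37-/- early meiotic gate (2429 to 3039 CPM) than in the WT one (1491 to 1521 CPM), and their part in the Mybl1 difference was not tested.

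Sox5 values were separated downward in every gate but the last. It had 161 and 93.3 CPM in WT and 50.1 and 70.0 CPM in Dhx37-/- spermatogonia, 122 and 128 against 63.3 and 79.2 CPM in early meiotic prophase, and 187 and 158 against 122 and 109 CPM in pachytene to diplotene spermatocytes. In early round spermatids, where Sox5 is at its highest, the difference was small (844 and 783 against 751 and 761 CPM). The changes in these 4 gates were -1.15 ± 0.39, -0.83 ± 0.29, -0.60 ± 0.27 and -0.16 ± 0.24 (edgeR adjusted p = 0.865, 0.195, 0.281 and 0.930). Sox5 in the free RNA of the libraries was also lower in Dhx37-/-, with 318 and 272 CPM in WT and 174 and 216 CPM in Dhx37-/-. So it was in macrophages (125 and 196 against 77.0 and 107 CPM), endothelial nuclei (189 and 193 against 161 and 49.2 CPM) and fibroblasts. The endothelial value of 49.2 CPM came from 7 nuclei. Sertoli, Leydig, T cell and peritubular myoid nuclei overlapped. Leydig markers, from cells with high Sox5, were higher in Dhx37-/- in all 5 gates (139 to 141 against 76.4 to 83.2 CPM in pachytene to diplotene spermatocytes). Markers of fibroblasts and of peritubular myoid cells, which also have high Sox5, overlapped in 4 of 5 gates each and were higher in Dhx37-/- in early meiotic prophase and in late spermatids, respectively. The part of free RNA in the Sox5 difference was not tested.

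Rfx3 values were separated downward in the first 3 gates, with 600.4 and 333 against 215 and 301 CPM in spermatogonia, 560.3 and 415 against 378 and 329.5 CPM in early meiotic prophase, and 585 and 440.5 against 340.2 and 313 CPM in pachytene to diplotene spermatocytes. The changes were -0.93 ± 0.29, -0.54 ± 0.26 and -0.68 ± 0.31 (edgeR adjusted p = 0.865, 0.336 and 0.284). Free RNA was separated the same way (539 and 144 CPM of Rfx3 in WT, 83.4 and 129.6 CPM in Dhx37-/-), as were macrophages (268 and 213 against 152 and 188 CPM), T cell and endothelial nuclei, whereas Sertoli, Leydig, peritubular myoid and fibroblast nuclei overlapped. The part of free RNA in the Rfx3 difference was not tested. In spermatids the groups overlapped, since WT replicate 2 was at the level of the Dhx37-/- libraries and WT replicate 1 stood above all. Without WT replicate 2, which leaves WT replicate 1 as the sole WT library with a spread assumed to be like that of the other group, Rfx3 was called lower in spermatogonia (-1.18, edgeR adjusted p = 3.93e-05), early meiotic prophase (-0.76, 0.00810), pachytene to diplotene spermatocytes (-0.92, 0.0461) and late spermatids (-0.66, 1.63e-04). In these fits 1.40%, 12.6%, 2.31% and 10.8% of all genes were called. Without WT replicate 1 the change of Rfx3 in late spermatids was 0.06.

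The same omission of WT replicate 2, with calls over all genes at those shares, gave calls for Sox5 in spermatogonia (-1.36, edgeR adjusted p = 0.0406), for Crem (-0.69, 0.0354) and Tcfl5 (0.94, 0.0273) in early meiotic prophase, and for Crem (-0.45, 0.0180) and Tbpl1 (0.65, 0.0464) in late spermatids. No gene of the 10 was called when any of the other 3 libraries was left out. Other ways of keeping nuclei also gave calls in early meiotic prophase. With the study's limits applied to every barcode, Fhl5 (-1.22, edgeR adjusted p = 0.0213), Rfx3 (-0.81, 0.0431) and Sox5 (-1.27, 0.0121) were called, beside 10.4% of all genes. With no upper limit on genes Sox5 was called (-1.07, edgeR adjusted p = 0.0430), beside 2.59% of all genes. That limit had removed 13 and 15 nuclei in WT and 204 and 302 in Dhx37-/-, so this setting adds nuclei mainly to the Dhx37-/- libraries.

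Sox30 values were separated downward in early meiotic prophase (76.2 and 73.3 against 61.3 and 60.1 CPM), pachytene to diplotene spermatocytes (108 and 109.5 against 97.5 and 99.6 CPM) and early round spermatids (136 and 138 against 130 and 129.9 CPM), with changes of -0.36 ± 0.32, -0.16 ± 0.26 and -0.13 ± 0.23 (edgeR adjusted p = 0.615, 0.775 and 0.938). Crem was separated downward in pachytene to diplotene spermatocytes (691 and 489 against 436 and 375 CPM), at -0.57 ± 0.32 (edgeR adjusted p = 0.373), and overlapped in the other germ cell gates. Outside the germ line, Crem was separated downward in Leydig (WT mean 129.8 and Dhx37-/- mean 93.1 CPM) and macrophage nuclei (191 and 153 CPM). Sox30 was separated downward in Leydig (21.3 and 18.2 CPM), macrophage (36.4 and 27.6 CPM) and endothelial nuclei (52.2 and 12.1 CPM, from 19 UMIs in all). Both genes overlapped in the other somatic classes. Free RNA was separated in the same direction for Crem (488 and 342 against 308 and 336 CPM) and Sox30 (157 and 114 against 93.9 and 105 CPM), and its part was not tested. Taf7l was separated downward in spermatogonia, at -0.47 ± 0.26 (edgeR adjusted p = 0.871), and in pachytene to diplotene spermatocytes, at -0.68 ± 0.35 (0.328). Fhl5 and Rfx2 overlapped in all gates in which they were tested, and in spermatogonia, where it was not tested, Fhl5 had 34.2 and 26.6 CPM in WT and 45.1 and 52.5 CPM in Dhx37-/-. In late spermatids, where Fhl5 is highest, its change was 0.05 ± 0.21 (edgeR adjusted p = 0.955), and for Rfx2 in pachytene to diplotene spermatocytes it was -0.00 ± 0.29, with no call.

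The share of the 10 genes whose groups did not overlap can be set against all genes. Of the 6, 10, 10, 10 and 10 genes tested in the 5 gates, 1, 3, 2, 2 and 2 were higher in both Dhx37-/- libraries (20.6%, 26.5%, 27.6%, 22.0% and 23.4% of all genes tested), and 3, 3, 5, 2 and 0 were lower (15.6%, 21.5%, 23.6%, 13.9% and 16.6%). No test was made of these counts against all genes. Shares of all genes separated were not taken in somatic classes other than Sertoli nuclei. A test of whether the genotype difference varied between gates called 1.80% of all genes and none of the 10. For Mybl1, the lowest of them, the edgeR adjusted p was 0.275. No gene of the 6 lists was called by genotype in any gate.

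Over whole libraries, where fewer cells of a type and less RNA per cell cannot be told apart, the kept nuclei had 124 ± 7.07 CPM of Tcfl5 in WT and 162 ± 20.5 in Dhx37-/- (SD, n = 2 each), and 89.5 ± 14.8 and 127 ± 11.3 CPM of Tbpl1. Rfx3 (642 ± 178 and 460.5 ± 6.36 CPM), Sox5 (516 ± 12.0 and 419 ± 41.0), Crem (595 ± 96.2 and 473 ± 1.41) and Sox30 (122 ± 2.12 and 106 ± 0.707) had lower values in both Dhx37-/- libraries. Fhl5, Rfx2, Mybl1 and Taf7l overlapped. Over all 23403 genes, 36.8% were separated upward and 16.2% downward in the same sums. Each of the 6 separations had p = 0.33 by the two-sided exact permutation test, the smallest it can give.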

How the data were processed

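Nuclei from whole testes were profiled with a droplet 3′ kit. The authors deposited raw counts, UMIs per gene for every barcode, made with Cell Ranger (7.2.0 in the file header). The build was mm39 in the study's methods and GRCm38/mm10 in the submitters' notes, so no coordinates were taken from the files. Use of introns and strand in counting is not given in the sources used here.

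Nuclei were called from the counts in 2 steps, by depth (8000 expected) and by difference from free RNA (barcode ranks 45000 to 90000, 10000 simulations, false discovery rate 0.01). Kept nuclei had 500 to 5000 detected genes, a minimum of 500 UMIs and no more than 25% of UMIs from mitochondria. Stage scores were averaged over 30 neighbors in scanpy 1.11.5, scaled to their 99.5 percentile (a choice made after the data were seen), and a nucleus took its leading stage where at least 3 markers of that stage reached 20 CPM and 1.5 times their level over all nuclei. Called doublets were kept in the main sums and left out in an alternative. UMIs were summed per library and gate and tested with edgeR 4.0.16 (TMM, quasi-likelihood F test, R 4.3.3) at an adjusted p of 0.05, with DESeq2 1.42.0 as an alternative. The tests were checked on simulated data. Intervals and floors cover counting error only.

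Named genes were the 10 themselves, Dhx37, the 2 genes most correlated with each (log2 of CPM + 1), and from each list at most the 2 highest and 2 lowest called changes per step. Taf7, Col9a3, Gm11906, Sox5os3 and Sox5os4 were named outside this rule, after their values were seen. The genes and lists were chosen with earlier results of these data known. Groups were taken from the labels.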

Additional observations from a re-analysis of the deposited data

Results flagged for a closer look

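Taf7l values were separated downward in 2 of the 5 germ cell gates and upward in Sertoli nuclei, and overlapped in early meiotic prophase, early round and late spermatids. Of all genes tested, 15.6% were separated downward in spermatogonia, 23.6% downward in pachytene to diplotene spermatocytes and 24.4% upward in Sertoli nuclei. In spermatogonia the Dhx37-/- mean was 166 CPM and the WT mean 224 CPM, with a fitted log2 change of -0.47 (edgeR adjusted p = 0.871). In pachytene to diplotene spermatocytes the means were 15.7 and 24.7 CPM, with a change of -0.68 (edgeR adjusted p = 0.328). In Sertoli nuclei the Dhx37-/- mean was 27.7 and the WT mean 12.9 CPM, with a change of 1.20 (edgeR adjusted p = 0.752) that rests on 5, 2, 45 and 39 UMIs. Every library of 1 genotype was on the same side of the other in each of these classes. The difference between the classes was not tested. Macrophages were also separated downward (14 UMIs in all), and T cell (4 UMIs) and peritubular myoid nuclei (11 UMIs) upward, while Leydig, endothelial and fibroblast nuclei overlapped.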

How the results depend on the processing

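The lists and limits below include settings chosen after seeing the data. They were totals only, crossed pairs, clusters of low UMIs included, unscaled scores, Sertoli nuclei, and all barcodes for the whole-library levels. Among the 29 called stage changes of the 10 genes, 296 of 319 alternative values kept direction and call, 23 were no longer called and 0 reversed. Among the 11 not called, 105 of 121 did not change, 12 became called and 4 reversed.

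Counts of genes called by genotype moved most. In spermatogonia (0) they were 27 with no filter, 4 with DESeq2, 18 with the replicate block, 9 with crossed pairs, 1 with the study's filter, 3 with no upper limit on genes, 4 in the strict gate, 6 without doublets, 1 with low-UMI clusters and 7 to 96 leaving out 1 library. In early meiotic prophase (13) they were 0 with totals only, 456 with no filter, 39 with DESeq2, 9 with the replicate block, 562 with crossed pairs, 1013 with the study's filter, 254 with no upper limit, 0 in the strict gate, 68 without doublets, 0 with low-UMI clusters and 18 to 1382 leaving out 1 library. In pachytene to diplotene spermatocytes (4) they were 0 with totals only, 969 with no filter, 272 with DESeq2, 12 with the block, 1971 with crossed pairs, 753 with no upper limit, 0 with low-UMI clusters and 14 to 624 leaving out 1 library. In early round spermatids (2) they were 17 with no filter, 27 with DESeq2, 1 with the block, 43 with crossed pairs and 7 to 355. In late spermatids (0) they were 17 with DESeq2, 18 with the block, 3 with crossed pairs and 4 to 2417. In Sertoli nuclei (0) they were 17 with no filter, 3 with the block and 1 to 351. The cause was not tested.

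Same-numbered libraries of the 2 genotypes correlated at -0.271 to -0.014 in their deviations, and the labels do not say that a number marks a pair. The first stage step (1342) gave 2023 with the study's filter, 2145 in the strict gate, 3731 with unscaled scores and 333 to 1270 leaving out 1 library. The other steps ranged over 11261 to 12665, 14883 to 16971 and 14494 to 16517, and the interaction over 33 to 623.

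Onset, by gate number from 1 (spermatogonia) to 5 (late spermatids), moved at 0.25 of the highest level to 2 for Crem, 1 for Tbpl1 and 2 for Mybl1. At 0.75 it moved to 5 for Crem, Fhl5 and Tcfl5, 4 for Rfx3, and 3 for Sox30 and Tbpl1, and after thinning to 2 for Tcfl5. With all barcodes the whole-library differences, Dhx37-/- minus WT in CPM, reversed for Fhl5 (13.4 against -8.00) and Rfx2 (-2.50 against 4.2). Uncalled genotype changes that reversed were Fhl5 in late spermatids (-0.09 to 0.28 leaving out 1 library), Rfx3 there (-0.66 to 0.06), Mybl1 in pachytene (-0.36 to 0.26, and 0.02 with no upper limit), Taf7l in early meiotic prophase (-0.80 to 0.06), and Rfx2 in pachytene, near 0 throughout (-0.27 to 0.32 leaving out 1 library, and 0.02 with totals only, 0.06 with no filter, 0.02 with the block, 0.02 with crossed pairs, 0.00 with the study's filter and 0.01 in the strict gate). Uncalled stage changes that reversed with totals only were Rfx3 (-0.01), Sox30 (-0.08) and Tcfl5 (-0.03, and -0.02 to 0.18 leaving out 1 library).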
